A study of Mus musculus with 18 samples.

Results

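Transcription factors that build and maintain astrocyte identity were followed in ribosome-bound RNA of mouse cortex after deletion of the glucose transporter GLUT1. The 10 genes, chosen by symbol and found among the 21923 genes of the count table, were the SOX factors Sox9 and Sox2, the nuclear factor I genes Nfia, Nfib and Nfix, the Notch effector Hes5, the helix-loop-helix inhibitor Id4, the LIM-homeodomain factor Lhx2, the zinc-finger factor Zbtb20 and the nuclear receptor Rorb. In translating ribosome affinity purification (TRAP), antibodies pull down ribosomes that carry EGFP-tagged L10a, and the mRNA bound to them is sequenced. The tag came from an intravenous virus, AAV-PHP.eB-hGFAP-DIO-EGFPL10a, in which the human GFAP promoter drives a Cre-dependent construct, so that only cells reached by the virus and carrying active Cre contribute by design.

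Mice labelled GLUT1 cKO carried loxP-flanked Slc2a1 alleles (GLUT1 flox/flox) and the tamoxifen-inducible Cre, CreERT2, under the GLAST (Slc1a3) promoter, written GLAC +/wt in the labels. The control mice carried the same CreERT2 allele and had wild-type Slc2a1, and both groups received the virus and tamoxifen. All were male C57BL/6 mice kept in the home cage, given tamoxifen for 5 days at 8 to 10 weeks of age, 7 days after the virus, with RNA taken 60 days later. The comparison is of 3 immunoprecipitated (IP) libraries of control mice (TRAP-11, TRAP-15 and TRAP-19) with 4 of cKO mice (TRAP-1, TRAP-5, TRAP-9 and TRAP-17). The labels list 5 control IP samples, of which 2, like the inputs, were not analysed here, so the enrichment of these factors over input is not given. The labels give every IP sample its own animal. Of the 10 factors, Nfia, Nfib and Hes5 lie on chromosome 4 with Slc2a1, 21, 36.6 and 35.8 Mb from it. Only cKO mice carried the floxed allele, and the part of this linkage in the values of these factors was not tested.

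Sox9 and the NFI factors act together at the onset of gliogenesis, when neural progenitors stop making neurons, and they stay on in mature astrocytes. Notch signalling drives Hes5 through the DNA-binding protein RBPJ and holds back proneural genes, while ID proteins such as ID4 bind class I helix-loop-helix proteins and keep them off DNA. Lhx2, Zbtb20 and Rorb are best known for patterning the cortex and its neurons, and all are also transcribed in cortical astrocytes. A level in bulk IP RNA cannot tell fewer contributing cells from less RNA per cell.

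The total estimated count lay between 12570309 and 40734343 per library, and 3 counts, taken as the floor, correspond to at most 0.239 CPM, that is counts scaled to a common library size. All 10 factors lay far above it, with at least 1071 counts in every library and scaled levels of 68.4 to 439 CPM. All 10 astrocyte markers had counts in every library, with summed levels of 30226 to 45823 CPM in control and 29967 to 57861 CPM in cKO libraries. The largest part of that sum was 1 marker, Aldoc, at 17036 to 27622 CPM in control and 15321 to 37440 CPM in cKO libraries. Gja1, the gap junction gene of astrocytes, varied less, at 1042 to 1233 CPM. Neuron markers, also detected throughout, summed to 3392 to 4394 CPM in control and 2930 to 4450 CPM in cKO libraries. Slc2a1, the targeted gene, was listed at 59.5 ± 2.02 CPM in control (SD, n = 3) and 59.0 ± 2.30 CPM in cKO libraries (SD, n = 4). The count is summed over the whole gene, and the counts of the deleted exons alone were not analysed here. In these whole-gene counts the targeted gene thus did not separate the genotypes. The paper counted reads over part of the Slc2a1 exons and reported a clear reduction in cKO cortical IP samples. It also reported lower Slc2a1 by qPCR of IP RNA and less GLUT1 protein in brain tissue depleted of capillaries. The genotype of each library is the one that the study's source data name.

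Of the factors in this group, 0 of 10 passed the threshold between genotypes, an adjusted p of 0.05 in the quasi-likelihood test of edgeR with Benjamini-Hochberg adjustment over all genes, against a background of 6 of 13296 tested genes, or 0.0451%. At an unadjusted p of 0.05 the count was also 0 of 10, with 2.58% over all tested genes, and in 0 of 10 did all cKO libraries lie on the same side of all control libraries, with 5.11% over all tested genes. By the exact test of edgeR 18 genes and by DESeq2 21 genes were called in all, and among the 10 factors both called 0 and gave 0 with an unadjusted p under 0.05. The fold change of cKO over control was positive for 8 factors and negative for 2, with a median log2 fold change of 0.05, beside 0.01 over all tested genes. It was positive for 4 factors without TRAP-9 and for 2, Nfia and Nfix, with the oligodendrocyte markers as a covariate. The lower ends of the 95% intervals were no further than 0.744-fold and the upper ends no further than 1.68-fold. Every adjusted p was 1.00 to 3 digits.

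**Figure D1:**
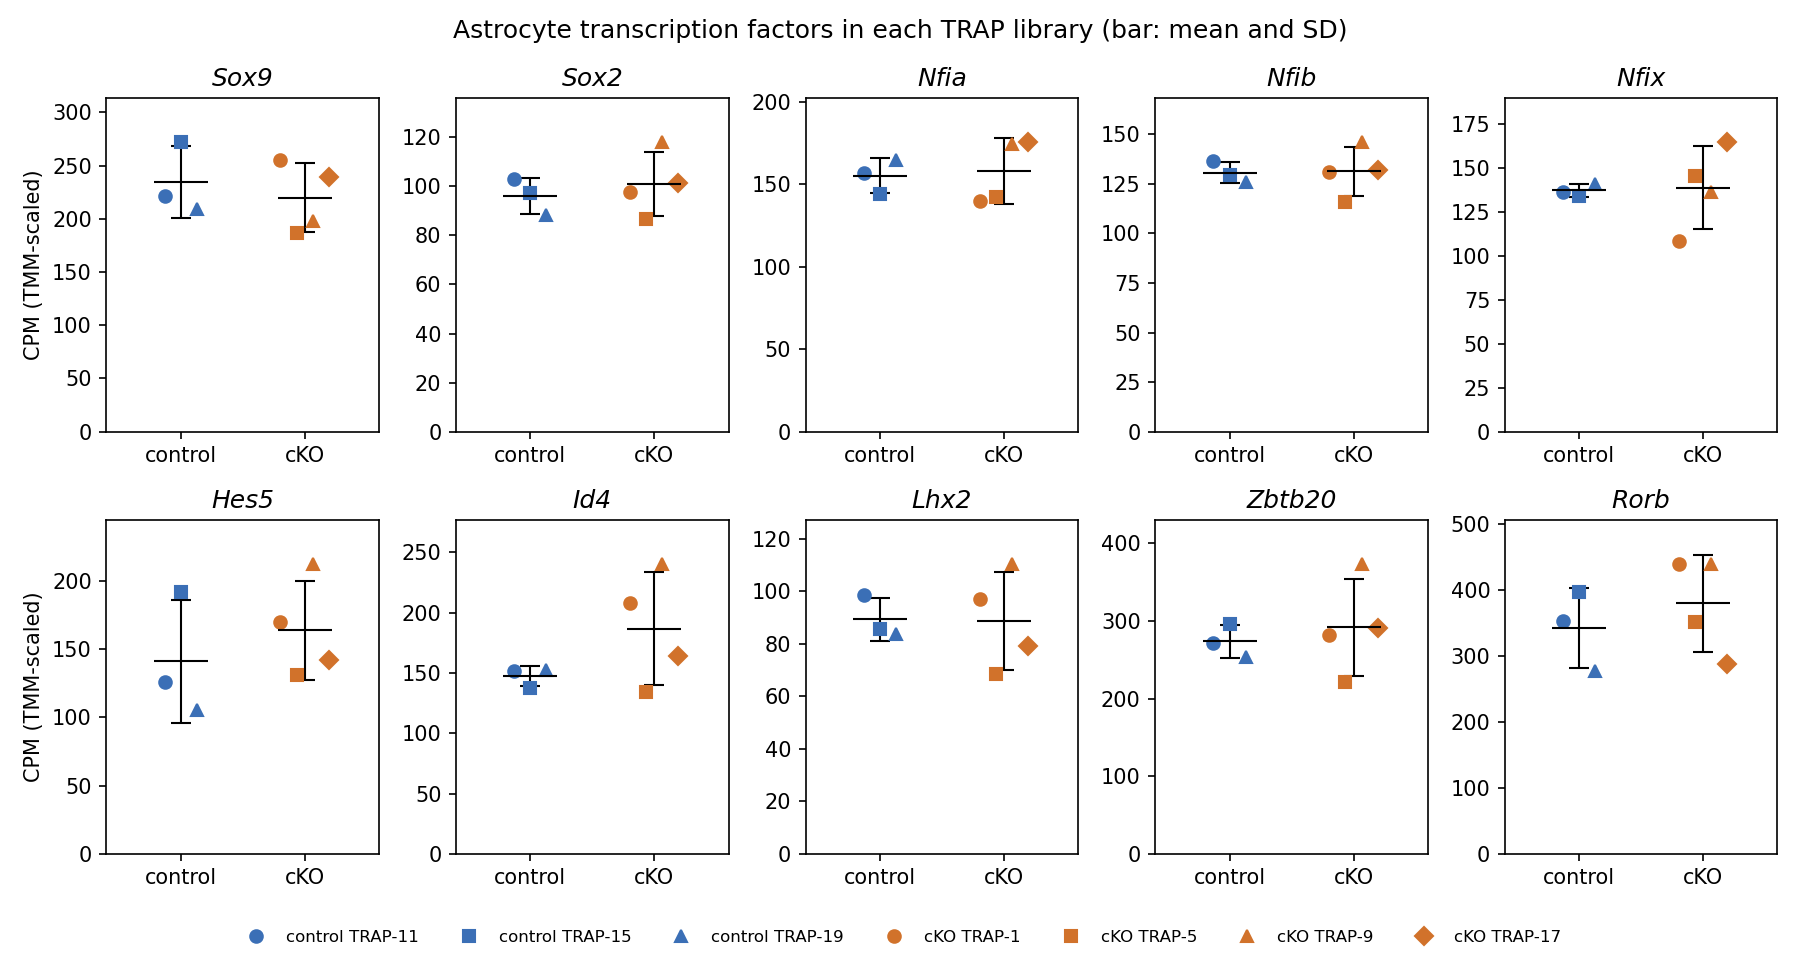
Level of each factor in CPM (y axis, starting at 0) in the 3 control and 4 cKO libraries (x axis). Each symbol is 1 library, the horizontal bar the group mean and the whiskers the SD. In all 10 panels the groups overlap, and Id4 shows 2 cKO libraries, TRAP-1 and TRAP-9, above the others.

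**Figure D2:**
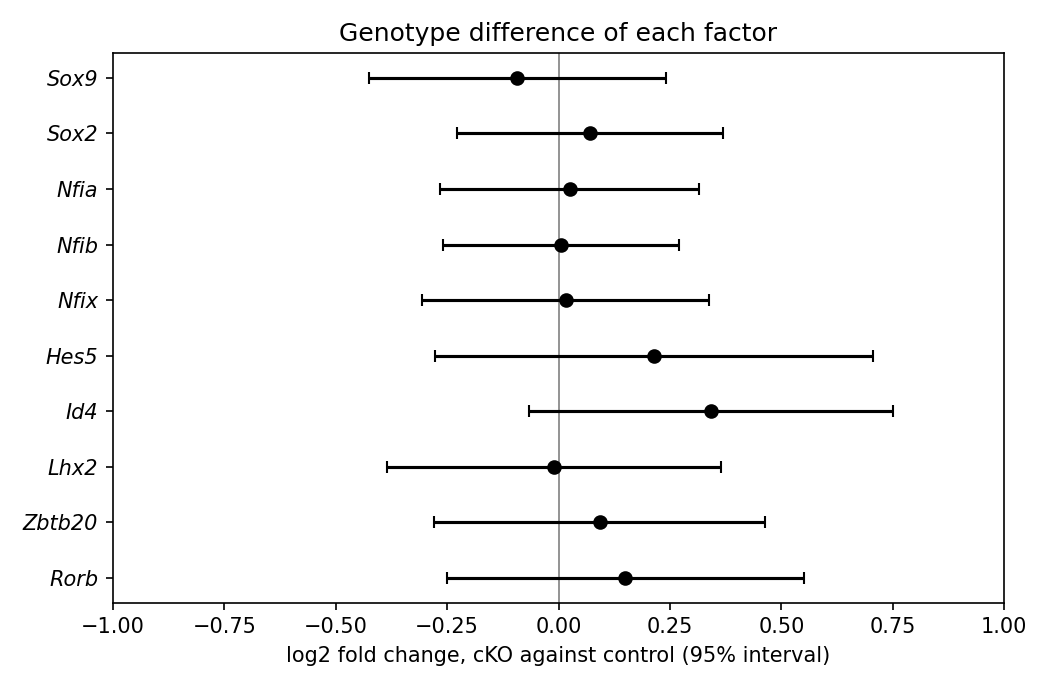
Log2 fold change of cKO against control (x axis) for each factor (y axis), with its 95% interval from edgeR's quasi-likelihood test. Every interval includes 0, and that of Id4, from -0.07 to 0.75, reaches furthest to the right.

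Sox9 (chromosome 11, 112782210 to 112787757, GRCm38.p6) encodes the SOX factor that starts glial specification and marks astrocyte nuclei in the adult brain. Its level was 222, 273 and 209 CPM in control TRAP-11, TRAP-15 and TRAP-19, and 255, 187, 198 and 240 CPM in cKO TRAP-1, TRAP-5, TRAP-9 and TRAP-17. The highest library was a control and the lowest a cKO library, and the groups overlapped. The log2 fold change was -0.09 ± 0.15 (SE, 95% interval -0.43 to 0.24). Without TRAP-15, the highest library, the value was 0.03.

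Sox2 (chromosome 3, 34649995 to 34652461), the SOXB1 factor of neural progenitors that astrocytes keep expressing, was at 103, 97.1 and 88.4 CPM in the control libraries, in the same order. In the cKO libraries it was at 97.9, 86.8, 118 and 101 CPM. The extremes, TRAP-9 above and TRAP-5 below, were both cKO libraries, and the log2 fold change was 0.07 ± 0.14 (SE, 95% interval -0.23 to 0.37). RefSeq places Sox2 inside the span of the non-coding gene Sox2ot.

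Among relatives of the SOX and NFI factors, 9 of 10 listed genes were tested, of which 0 passed the threshold, with a median log2 fold change of -0.03. Sox8, the SOXE relative of Sox9 found in both astrocytes and oligodendrocyte lineage cells, was at 75.4, 86.2 and 82.7 CPM in control and 62.9, 52.0, 73.8 and 58.5 CPM in cKO libraries. All 4 cKO libraries lay below all 3 controls. Groups did not overlap in 1 of the 9 tested genes of the list, beside 5.11% of all tested genes. On the log2 scale the fold change of Sox8 was -0.40 ± 0.14 (SE), with an unadjusted p of 0.0188 in the quasi-likelihood test across all genes and an adjusted p of 1.00. Sox10, the SOXE gene of oligodendrocytes, lay between 1.73 and 6.74 CPM, and its log2 fold change was -0.06 ± 0.54 (SE). Sox6, a SOXD gene, was the second of the list by p, with a log2 fold change of 0.15 ± 0.16 (SE).

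The NFI proteins bind DNA as dimers of any of the family's members, and Nfia is the one most closely tied to the switch from neurons to glia. Nfia (chromosome 4, 97578066 to 98118876) was at 157, 144 and 165 CPM in control and at 140, 142, 174 and 176 CPM in cKO libraries. Nfib (chromosome 4, 82290173 to 82506751) was at 137, 129 and 126 CPM in control and at 131, 116, 146 and 132 CPM in cKO libraries. In both genes the highest and the lowest library were cKO libraries, and the control values fell between them. Between genotypes the log2 fold change was 0.02 ± 0.13 (SE, 95% interval -0.26 to 0.31) for Nfia and 0.01 ± 0.12 (SE, 95% interval -0.26 to 0.27) for Nfib. Nfib varied little between libraries, and its biological coefficient of variation was at percentile 2.55 of all tested genes, the lowest of the 10 factors.

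Nfix (chromosome 8, 84704712 to 84801238), which also keeps adult neural stem cells quiescent, was at 136, 134 and 141 CPM in the control libraries. In the cKO libraries it ranged more widely, at 108, 145, 136 and 165 CPM. The fold between the highest and the lowest library was 1.05 within control and 1.52 within cKO, with TRAP-1 lowest and TRAP-17 highest. The log2 fold change was 0.02 ± 0.15 (SE, 95% interval -0.31 to 0.34). Nfic, the remaining NFI gene and not among the factors chosen, was at 130 to 133 CPM in control and 125 to 150 CPM in cKO libraries, with a log2 fold change of 0.09 ± 0.11 (SE).

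The make-up of the NFI family within a library is free of scaling between libraries. Nfia made up 28.0 ± 1.32% of the summed NFI counts in control (SD, n = 3) and 27.7 ± 0.931% in cKO libraries (SD, n = 4). Nfib made up 23.6 ± 1.07% and 23.2 ± 1.87%, and Nfic 23.7 ± 0.793% and 24.7 ± 1.43%, in the same order. Counts are not corrected for transcript length, so these shares compare groups and not genes. Nfix made up 24.4, 24.8 and 25.0% in the control libraries and 20.9, 27.5, 22.5 and 26.6% in TRAP-1, TRAP-5, TRAP-9 and TRAP-17. No cKO value lay inside the narrow control range: TRAP-1 and TRAP-9 were below it and TRAP-5 and TRAP-17 above. The 4 exact two-sided permutation tests over libraries gave p = 0.857 for Nfia, 0.743 for Nfib, 0.286 for Nfic and 0.857 for Nfix, each 0.857 after Benjamini-Hochberg adjustment over the 4 shares. The smallest p that 3 against 4 libraries allow is 0.0571, so no share could have passed 0.05. The differences between genotypes were at most 1.02 percentage points, that of Nfic.

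**Figure D3:**
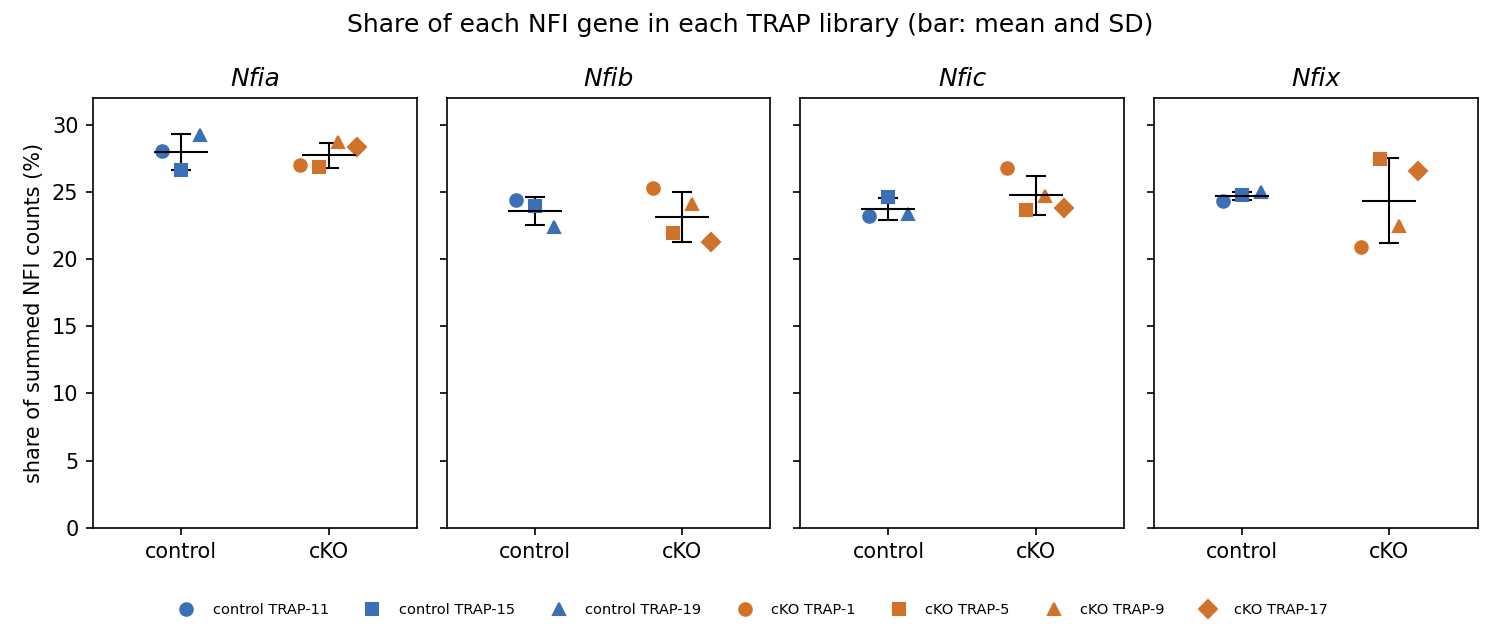
Share of each NFI gene in the summed counts of Nfia, Nfib, Nfic and Nfix (y axis, percent, starting at 0) in control and cKO libraries (x axis). Symbols are libraries, the bar is the mean and the whiskers the SD, and the Nfix panel shows control libraries from 24.4 to 25.0% between cKO libraries at 20.9 and 27.5%.

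Hes5 (chromosome 4, 154960626 to 154962372) is the Notch-responsive repressor of proneural genes in progenitors and astrocytes. The promoter table places its window before a RefSeq transcript start at 154960923, which lies 297 bases inside the gene's full span. In the 250 bases before that start the letters TGGGAA or their reverse complement TTCCCA, the core that RBPJ recognizes, occur at 2 places. These places are shown with 10 bases on each side (chr4:154960687-154960712 and chr4:154960831-154960856, plus strand), beside the 250 bases before the gene start of Id4 (chr13:48260866-48261115, plus strand), the factor with the largest fold change. The core stands in capitals, and the sequences run 5′ to 3′ and are RefSeq's for GRCm38.p6.
Hes5, first match: ggcgagcgcgTTCCCAcagcccggac
Hes5, second match: ccgccgagtgTGGGAAcggccgcggc
Id4: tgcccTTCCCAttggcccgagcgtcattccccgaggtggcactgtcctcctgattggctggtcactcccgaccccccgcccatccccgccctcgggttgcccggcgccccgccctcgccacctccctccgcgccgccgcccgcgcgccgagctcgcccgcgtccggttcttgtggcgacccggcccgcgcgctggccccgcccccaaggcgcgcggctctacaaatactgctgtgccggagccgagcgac
In Hes5 the matches start 226 and 82 bases before the transcript start at 154960923, and in Id4 the match starts 245 bases before the gene's start. Promoter entries were found for 8 of the 10 factors, in 13 windows of 250 bases before a transcript start, of which 6 held these letters, in Hes5, Id4, Lhx2, Zbtb20 and Rorb. Over all 32851 windows of the same length the share was 21.6%. On both strands, the SOX core ACAAAG was found in 3 of the 13 windows, against 16.5% of all windows, and the ROR half-site AGGTCA in 3 of 13, against 14.0%. The NFI palindrome, TTGGC and GCCAA with any 5 bases between them, was found in 0 of 13, against 0.0365% of all windows. A match is a description of the sequence and shows no binding, and no match says only that these letters are not in the window.

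In the libraries, Hes5 was at 126, 192 and 106 CPM in control and at 170, 131, 212 and 142 CPM in cKO. Over all 7 libraries its fold between the highest and the lowest, 2.01, was the largest of the 10 factors, and it was 1.82 within control and 1.62 within cKO, where Id4 and Zbtb20 ranged more widely. TRAP-15 in control and TRAP-9 in cKO were high, TRAP-19 was lowest, and the groups overlapped. For cKO against control the log2 value was 0.21 ± 0.22 (SE, 95% interval -0.28 to 0.71). Without TRAP-15 it was 0.50, with an unadjusted p of 0.0402 and an adjusted p of 1.00 in the quasi-likelihood test, and with the oligodendrocyte markers as a covariate it was -0.13.

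Of 16 listed genes of the Notch pathway and of HES and HEY factors, 15 were tested and 0 passed the threshold, 7 with a positive and 8 with a negative fold change around a median log2 value of -0.02. Hes1, the HES gene that also responds to signals other than Notch, was at 54.3 to 66.3 CPM in control and 49.8 to 66.5 CPM in cKO libraries, with a log2 fold change of -0.02 ± 0.14 (SE). Heyl, a HEY-family Notch target, was lowest by p in the list. It was at 16.5, 15.6 and 15.3 CPM in control and 11.8, 8.25, 14.2 and 11.1 CPM in cKO libraries, without overlap. Groups did not overlap in 1 of the 15 tested genes of the list, beside 5.11% of all tested genes. The log2 fold change of Heyl was -0.48 ± 0.23 (SE, unadjusted p = 0.0640 and adjusted p = 1.00, edgeR). Dtx1, a Deltex ubiquitin ligase of the Notch pathway, followed with -0.26 ± 0.14 (SE) on the log2 scale.

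Id4 (chromosome 13, 48261116 to 48266028) had the largest fold change of the 10 factors. The level was 152, 138 and 152 CPM in control and 208, 134, 240 and 164 CPM in cKO libraries. TRAP-9 and TRAP-1 were the highest, TRAP-17 lay just above the controls and TRAP-5 was the lowest of all 7 libraries. The log2 fold change was 0.34 ± 0.19 (SE, 95% interval -0.07 to 0.75), or 1.27-fold, with an unadjusted p of 0.0922 and an adjusted p of 1.00 in the quasi-likelihood test. Without TRAP-5 the log2 value was 0.47 (unadjusted p = 0.0141, adjusted p = 0.999, edgeR), and without TRAP-9 it was 0.19 (unadjusted p = 0.288).

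The mean of the oligodendrocyte markers was low in the same libraries in which Id4 was high, but single markers did not all follow it. Cnp, the most abundant of them by mean, was at 366, 370 and 281 CPM in control TRAP-11, TRAP-15 and TRAP-19. In cKO TRAP-1, TRAP-5, TRAP-9 and TRAP-17 it was at 351, 275, 257 and 172 CPM. The mean log2 level of the list was 4.33 in TRAP-1 and 4.06 in TRAP-9, against 4.95 to 5.38 in the other 5 libraries. With that mean as a covariate, the log2 fold change of Id4 was -0.01, and with the mean of the neuron markers as a covariate it was 0.32 (unadjusted p = 0.0224, adjusted p = 0.998, edgeR). The part of either cell type in the Id4 values was not tested beyond these fits. All 10 oligodendrocyte markers had counts in every library, summing to 789 to 891 CPM in control and 476 to 924 CPM in cKO libraries.

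Of 14 listed ID and other helix-loop-helix genes with their BMP inputs, 13 were tested and 0 passed the threshold, with a median log2 fold change of -0.01. Id3, an ID gene that BMP signalling induces, was at 305 to 364 CPM in control and 243 to 474 CPM in cKO libraries. TRAP-1 and TRAP-9 were its highest libraries too. Its log2 fold change was 0.12 ± 0.21 (SE), and -0.30 with the oligodendrocyte markers as a covariate. Smad9, a SMAD that BMP receptors activate, and Bmp4, a BMP ligand, were lowest by p in the list, with log2 fold changes of 0.65 ± 0.39 and -1.66 ± 1.24 (SE), and Bmp4 did not exceed 1.24 CPM in any library.

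Lhx2 (chromosome 2, 38339271 to 38369737), the LIM-homeodomain selector of cortical identity, was at 98.8, 85.9 and 83.7 CPM in control and at 97.1, 68.4, 111 and 79.4 CPM in cKO libraries. TRAP-9 was the highest and TRAP-5 the lowest library, with the controls between them. On the log2 scale the fold change was -0.01 ± 0.17 (SE, 95% interval -0.39 to 0.36). With the oligodendrocyte markers as a covariate the value was -0.31, with an unadjusted p of 0.0457 and an adjusted p of 0.383 in the quasi-likelihood test.

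Zbtb20 (chromosome 16, 42875689 to 43634392), a BTB zinc-finger repressor that promotes astrocyte formation in the developing cortex, was at 272, 296 and 254 CPM in control and 282, 221, 374 and 291 CPM in cKO libraries. The order was that of Lhx2 at the extremes, TRAP-9 highest and TRAP-5 lowest. Between genotypes the log2 fold change was 0.09 ± 0.17 (SE, 95% interval -0.28 to 0.46). Without TRAP-9 it was -0.06. Of 13 listed LIM and BTB partners and relatives 11 were tested and 0 passed the threshold, with a median log2 fold change of 0.03. Zbtb16, another BTB zinc-finger gene, had the lowest p of that list at 0.42 ± 0.23 (SE) on the log2 scale, followed by Lhx6, the LIM-homeodomain gene of cortical interneurons, at -0.66 ± 0.58.

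Rorb (chromosome 19, 18930609 to 19111196) encodes a retinoid-related orphan receptor best known from layer 4 neurons. It was at 352, 397 and 276 CPM in control and at 439, 351, 439 and 287 CPM in cKO libraries. TRAP-1 and TRAP-9 were high, TRAP-19 and TRAP-17 low, and the groups overlapped. The log2 fold change was 0.15 ± 0.18 (SE, 95% interval -0.25 to 0.55). Its paralog Rora was at 144 to 190 CPM in control and 137 to 183 CPM in cKO libraries, with -0.07 ± 0.14 (SE) on the log2 scale. All 15 listed genes of the ROR, REV-ERB and clock group were tested, 0 passed the threshold, and the median log2 fold change was 0.04. The lowest p values of that list were those of Arntl, the BMAL1 gene of the clock's activating arm, at 0.20 ± 0.15 (SE) and of Hlf, a PAR bZIP output gene, at 0.20 ± 0.15 (SE).

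Libraries of the same genotype differed among themselves. In all 10 factors the fold between the highest and the lowest cKO library was larger than the fold between genotypes, and in 9 of 10 the same held for the control libraries, Id4 being the exception. In 9 of 10 the range was wider among the 4 cKO than among the 3 control libraries, Hes5 being the exception. A range over single libraries tends to exceed a fold between groups, and a range over 4 libraries tends to exceed one over 3. The same counts over all tested genes were not computed here, so they are not traits particular to these factors. TRAP-9 was the highest of the 7 libraries for 6 factors and TRAP-5 the lowest for 6, and TRAP-9 exceeded TRAP-5 in 9 of 10 factors, all but Nfix. The ratio of TRAP-9 to TRAP-5 was 1.79 for Id4, 1.69 for Zbtb20, 1.62 for Hes5 and 1.62 for Lhx2, and 0.939 for Nfix. TRAP-9 and TRAP-5 are both cKO libraries by the study's source data.

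Markers of other cell types differed between the same libraries. The mean log2 level of the neuron markers was lowest in TRAP-9, at 7.05, and highest in TRAP-5, at 7.58, and those of the microglial markers were 2.71 and 3.78, again the lowest and the highest of the 7 libraries. The 7 microglial markers in the table summed to 50.6 CPM in TRAP-9 and 104 CPM in TRAP-5, beside 62.2 to 80.5 CPM in the control libraries. Endothelial markers summed to 11.3 to 21.1 CPM in control and 14.2 to 31.6 CPM in cKO libraries, and 4 of the 7 were at 0 in some library, Pecam1, Tek, Kdr and Slco1a4. The pericyte and smooth muscle markers summed to 39.5 to 46.2 CPM in control and 42.9 to 61.2 CPM in cKO libraries, with Kcnj8 and Myh11 at 0 in some library. By the mean over the 7 libraries, which need not be the order within each library, the most abundant marker of these lists was Snap25 of neurons at 1572 to 2255 CPM, Cnp of oligodendrocytes at 172 to 370 CPM, C1qb of microglia at 9.49 to 33.0 CPM, Pdgfrb of pericytes at 12.8 to 27.9 CPM and Cldn5 of endothelium at 3.41 to 12.2 CPM. The part of these cells in the order of the libraries was not tested. The astrocyte markers followed another order, with TRAP-1 highest and TRAP-17 lowest.

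**Figure D4:**
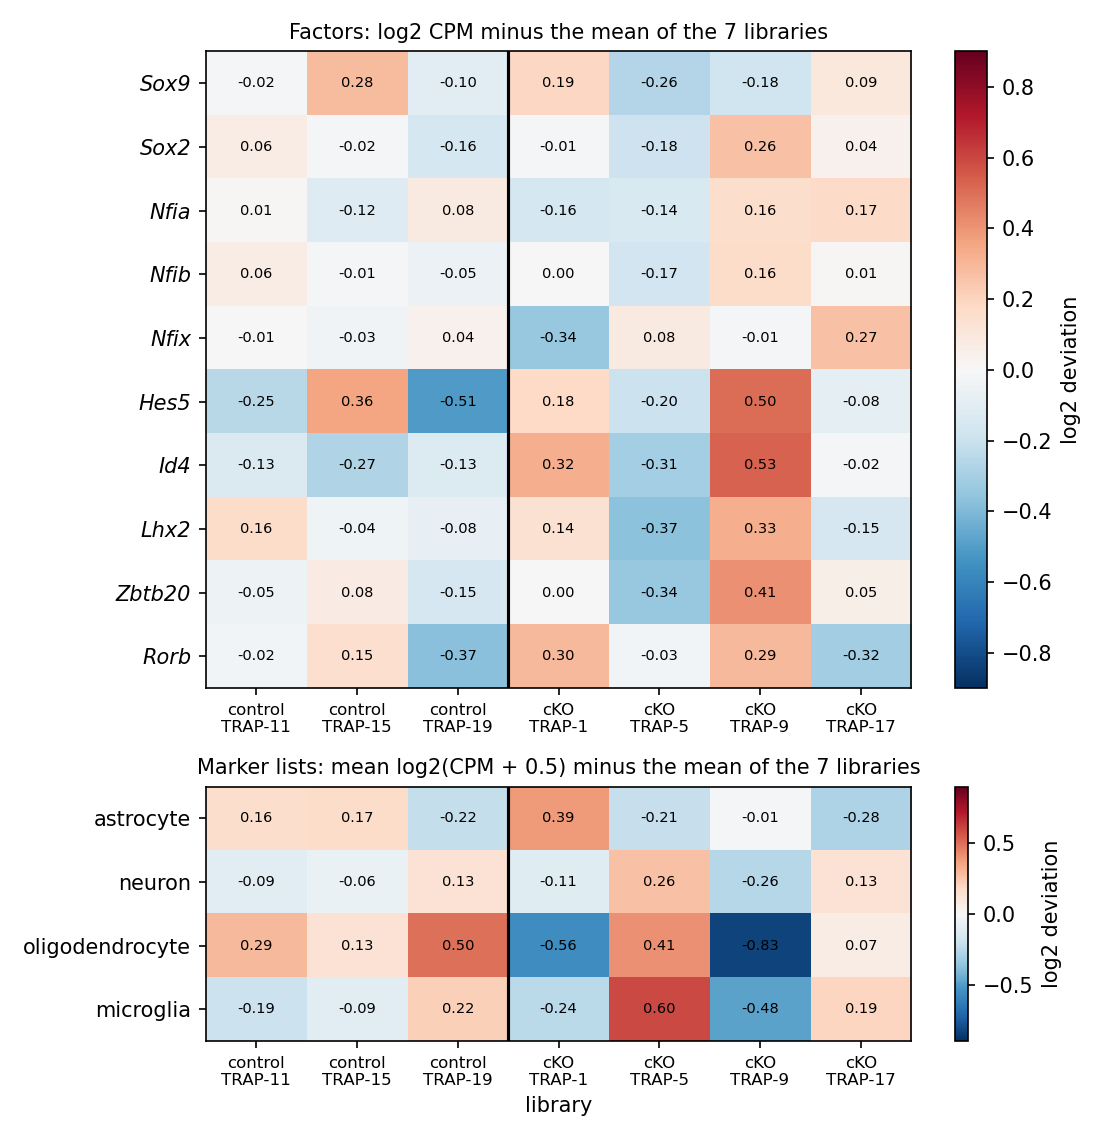
Upper panel, log2 CPM of each factor (rows) in each library (columns) minus the mean over the 7 libraries. Lower panel, the same for the mean log2(CPM + 0.5) of 4 marker lists. Red is above and blue below the mean, and TRAP-9 is above it for 8 of 10 factors while its neuron, oligodendrocyte and microglial markers are below.

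Genes of other astrocyte and lineage lists set these values in context. Across the 11 lists beside the 10 factors, 123 of 135 genes were tested, 0 had an adjusted p under 0.05 and 6, or 4.88%, had an unadjusted p under 0.05 in edgeR's quasi-likelihood test, beside the 2.58% of all tested genes. In 7 of the 123 the groups did not overlap, beside 5.11% of all tested genes. Of 21 other astrocyte transcription factors, 11 had a positive and 10 a negative fold change. Trps1, a GATA-type zinc-finger gene, was at 54.0, 50.8 and 38.5 CPM in control and 59.4, 55.9, 71.1 and 58.8 CPM in cKO libraries, all 4 above the controls, with a log2 fold change of 0.36 ± 0.16 (SE, unadjusted p = 0.0446, edgeR). The log2 value of Trps1 was 0.22 without TRAP-19 (unadjusted p = 0.193) and 0.21 with the oligodendrocyte markers as a covariate (unadjusted p = 0.230), in the same edgeR test. Stat3, the effector of cytokine signalling in reactive astrocytes, was at 82.0, 74.5 and 85.9 CPM in control and 79.3, 49.0, 61.2 and 62.3 CPM in cKO libraries. Its log2 fold change was -0.36 ± 0.16 (SE, unadjusted p = 0.0496, edgeR), and -0.26 without TRAP-5 (unadjusted p = 0.110, edgeR). Over the 17 alternatives its unadjusted p ran from 0.00955 without TRAP-1 to 0.171 when scaled to the astrocyte markers (edgeR). With a library left out, it was under 0.05 only without TRAP-1. The adjusted p of Trps1 and of Stat3 was 1.00 with all libraries.

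Astrocyte genes that these factors are known to activate were spread around 0: 9 of 15 had a positive and 6 a negative fold change, 0 passed the threshold and the median log2 value was 0.01. Gfap, the intermediate filament gene that SOX9 and NFIA activate, was at 1576, 1385 and 1298 CPM in control and 2623, 843, 1089 and 726 CPM in cKO libraries, highest in TRAP-1. Its log2 fold change was -0.10 ± 0.38 (SE). Ednrb, the endothelin receptor, and Aldh1l1, the folate enzyme used to mark astrocytes, were lowest by p in that list, at -0.28 ± 0.14 and -0.35 ± 0.22 (SE) on the log2 scale.

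Of the 11 lists, that of the oligodendrocyte lineage factors had the lowest median. All 7 tested genes of 8 had a negative fold change, with a median log2 value of -0.33 and 0 with an adjusted p under 0.05. In 3 of the 7 the groups did not overlap, Olig1 and Olig2 among them, beside 5.11% of all tested genes. Olig1, a helix-loop-helix gene of oligodendrocyte precursors that cortical astrocytes also transcribe, was at 348, 344 and 253.4 CPM in control and 252.6, 245, 232 and 202 CPM in cKO libraries, with TRAP-19 just above TRAP-1. Olig2, its neighbour and partner, was at 67.3, 69.9 and 58.5 CPM in control and 52.1, 56.9, 43.9 and 54.3 CPM in cKO libraries. The log2 fold change was -0.44 ± 0.15 (SE) for Olig1 and -0.33 ± 0.14 (SE) for Olig2, with unadjusted p of 0.0125 and 0.0367 and adjusted p of 1.00 in edgeR's quasi-likelihood test. All 10 oligodendrocyte markers also had negative values, with a median log2 fold change of -0.39. The 6 oligodendrocyte precursor markers, a list that includes Olig1 and Olig2 themselves, summed to 318 to 424 CPM in control and 266 to 312 CPM in cKO libraries, and 2 of them, Cspg4 and C1ql1, were at 0 in some library. The part of these cells in the values of Sox8, Olig1 and Olig2 was not tested beyond the covariate fits that follow. With the oligodendrocyte markers as a covariate Sox8 was at -0.59, Olig1 at -0.50 and Olig2 at -0.24 on the log2 scale, with adjusted p of 0.232, 0.279 and 0.538. The unadjusted p exceeded 0.05 for Sox8 without TRAP-15, at 0.0663, and for Olig1 without TRAP-11 or TRAP-15, at 0.0651 and 0.0563 (edgeR). For Olig2 it was 0.122 without TRAP-15, 0.105 without TRAP-11, 0.0644 without TRAP-1 and 0.0876 without TRAP-9 (edgeR). It was 0.0809 for Olig2 with scaling by library size only and 0.150 with the oligodendrocyte covariate (edgeR). Scaled to the astrocyte markers it was 0.170 for Sox8, 0.0658 for Olig1 and 0.355 for Olig2 (edgeR).

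In the remaining lists 0 genes passed the threshold. The median log2 fold change was -0.04 over 10 neuronal transcription factors, where Neurod6 and Cux2, both of cortical excitatory neurons, were lowest by p at -0.39 ± 0.24 and 0.60 ± 0.39 (SE). It was 0.06 over 5 microglial factors, where Ikzf1, a zinc-finger factor of haematopoietic cells, was at 0.65 ± 0.86 (SE). Over 5 endothelial factors it was 0.27, where Sox7 and Lef1 were at 0.63 ± 0.46 and 0.14 ± 0.35 (SE).

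**Figure D5:**
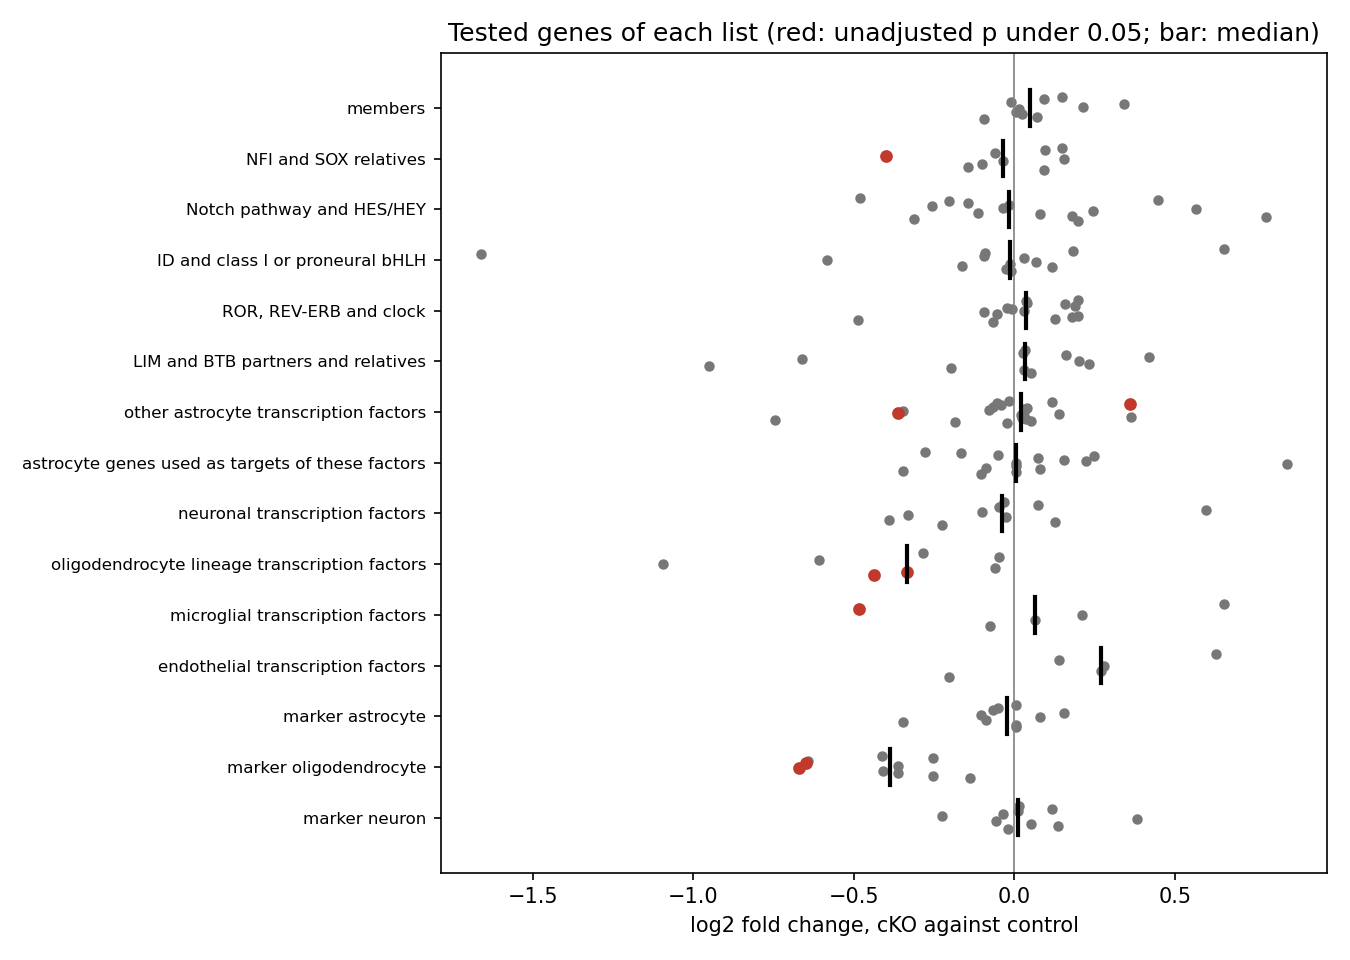
Log2 fold change of cKO against control (x axis) of every tested gene of each list (y axis), with the 10 factors named members. Each dot is 1 gene, red dots have an unadjusted p under 0.05 in edgeR's quasi-likelihood test and the black bar is the list's median, which is -0.33 for the oligodendrocyte lineage factors and 0.05 for the 10 factors.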

How the data were processed

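RNA of cortical TRAP immunoprecipitates was made into Smart-seq2 libraries and sequenced as single-end reads of 100 nt. The authors excluded samples with very few reads or with high expression of neuronal genes. Per the labels, reads were trimmed with cutadapt 1.15 and assigned with kallisto 0.44.0 to GENCODE transcripts of GRCm38. The deposited values are estimated counts summed over the protein-coding transcripts of a gene, not scaled for depth or length. Smart-seq2 does not mark strand, so overlapping antisense reads cannot be told apart.

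The table holds 18 sample columns. The 7 whose number the study's source data name as an IP sample of a genotype were used, and the other 11 were not used, since their names show no group. Pairing inputs by number order was not done.

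Counts were rounded, filtered with filterByExpr (13296 of 21923 genes kept) and scaled by TMM. Genotypes were compared with the quasi-likelihood test of edgeR 4.0.16 (R 4.3.3, limma 3.58.1), with Benjamini-Hochberg adjustment over all tested genes and a threshold of 0.05. Standard errors came from the F statistic. CPM were computed with TMM-scaled library sizes. NFI shares were compared with exact permutation tests (scipy 1.17.1). Alternatives were edgeR's exact test, as in the study, DESeq2 1.42.0, other scalings and filters, marker levels as covariates and leaving out each library. The tests were tried on simulated counts.

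Replicates of a genotype did not agree within counting noise, with a chi-square per degree of freedom of at least 32.8, so none was counted as a copy of another. The depth of 12570309 to 40734343 counts limits precision by counting error only for weakly expressed genes.

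The factors and lists were chosen with earlier results of these data known. Named are all 10 factors, the 2 genes with the lowest p of each other list, 5 relatives fixed by name and marker genes. A gene that this rule names is not reported here. Gene positions and promoter sequences are RefSeq's for GRCm38.p6.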

Additional observations from a re-analysis of the deposited data

Results flagged for a closer look

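Each of 50 sets of 4 cKO values (the 10 factors, the other named genes and the NFI shares) was examined for a library far from the other 3 by Dixon's criterion, which chance meets in about 1 set of 20. It was met in 1 set. Bmp4, a BMP ligand, was at 0.852 CPM in TRAP-5 and at 0 to 0.0994 CPM in the other cKO libraries. It was met by 0 of the 10 factors. The 3 control values were not examined in this way.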

How the results depend on the processing

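Over 17 alternatives the number of factors called stayed at 0, as did that of every list. The number of all genes called was 18 by edgeR's exact test, 21 by DESeq2, between 4 and 6 with a library left out and at most 9 otherwise. The log2 fold change of a factor kept its sign in 147 of 170 values. It turned to -0.0074 for Nfib with upper-quartile scaling and to 0.048 for Lhx2 when scaled to the astrocyte markers, and with the oligodendrocyte markers as a covariate to -0.084 for Sox2, -0.11 for Nfib, -0.13 for Hes5, -0.011 for Id4, -0.18 for Zbtb20 and -0.096 for Rorb. With each library left out, the log2 fold change lay between -0.17 and 0.028 for Sox9, -0.021 and 0.14 for Sox2, -0.033 and 0.079 for Nfia, -0.058 and 0.061 for Nfib, -0.077 and 0.12 for Nfix, -0.14 and 0.097 for Lhx2 and -0.056 and 0.20 for Zbtb20, and kept its sign for Hes5 (0.042 to 0.50), Id4 (0.19 to 0.47) and Rorb (0.017 to 0.27). The differences in NFI share, in percentage points, lay between -0.909 and 0.412 for Nfia, -1.13 and 0.215 for Nfib, 0.336 and 1.47 for Nfic and -1.40 and 0.781 for Nfix. The cause of these changes was not tested. No paired analysis was possible because the columns carry no replicate numbers. NFI shares per transcript length were not run, since no lengths were used here.

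The factors had at least 1071 counts in each library. At these numbers of libraries the widest 95% interval of a fold change, that of Hes5, ran from 0.825 to 1.63, and the narrowest, that of Nfib, from 0.836 to 1.21. Differences inside these bounds could not be told from the spread between libraries.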
